A study of Mus musculus with 42 samples.

Results

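The broad resting H3K27ac domains are the stretches of 15 kb or more that carried acetylated histone H3 lysine 27 in unstimulated wild-type macrophages. They were found by merging, wherever they overlapped, the H3K27ac regions of the 3 WT libraries at 0 h and by keeping each merged region of at least 15 kb that all 3 libraries contributed to. Of 48476 merged regions, 37229 were found in all 3 libraries and 510 of these passed the width limit, leaving 36719 other resting regions for comparison. The domains were thus chosen by the width and extent of H3K27ac signal in WT cells at 0 h, and every H3K27ac comparison that uses those libraries is given below as a description with no test.

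The series holds 42 ChIP-seq libraries of mouse bone marrow-derived macrophages (BMDMs), 18 for H3K27ac, 18 for RNA polymerase II (Pol II) and 6 of input DNA. Its comparisons ask how lipopolysaccharide (LPS, the bacterial cell wall ligand of Toll-like receptor 4) changes chromatin and transcription and whether the nuclear receptor Nur77, encoded by Nr4a1, alters that change. Each antibody had 3 libraries in each of 6 groups, WT and Nur77 KO at 0, 1 and 18 h of LPS at 100 ng/ml, and each group had 1 input library. The cells came from male C57Bl6/J mice of 6 to 12 weeks and had been differentiated for 7 days in medium conditioned by L929 cells. The KO mice carry a whole-body deletion made with CMV-Cre from a loxP-flanked Nr4a1 allele and were then bred without the Cre, whereas their genotype label names only the Cre, and the WT mice were littermates. The labels do not say whether the 3 libraries of a group came from separate mice, so p-values measure the spread between these libraries only.

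H3K27ac is written by the acetyltransferases p300 and CBP at active promoters and enhancers. Long unbroken stretches of it, built from neighbouring enhancers bound by lineage factors such as PU.1 and C/EBP proteins, are known to lie beside genes that define a cell type, and Pol II is often found along them because active enhancers are themselves transcribed. In macrophages LPS signals through NF-kB, AP-1 and interferon regulatory factors (IRFs), which open further enhancers near inflammatory genes. Below, signal is given in normalized tags, the number of sequenced fragments assigned to a stretch after each library was scaled to 10000000 tags, and a domain is named by the protein-coding genes that start in it or, as "near" a gene, by the closest coding start.

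Sequence is shown first for the widest domain, for domains with large changes in Pol II and for the miRNA genes inside domains. The widest domain lay next to Atf3, an LPS-induced transcription factor, and the stretch of 300 bases within it that held the most matches to the 6 motifs searched was chr1:191250281-191250580 (mm10, plus strand). Capitals mark matches to PU.1, C/EBP and the Nur77 response element (NBRE).
near Atf3 window: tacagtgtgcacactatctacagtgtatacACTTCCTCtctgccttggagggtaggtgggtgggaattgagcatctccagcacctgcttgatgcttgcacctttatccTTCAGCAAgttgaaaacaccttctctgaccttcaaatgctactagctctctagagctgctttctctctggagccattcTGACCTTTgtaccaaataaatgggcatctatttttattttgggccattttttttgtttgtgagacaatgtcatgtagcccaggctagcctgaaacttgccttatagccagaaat
The domain near Zranb3, which lost nearly all of its Pol II tags with LPS, had such a stretch at chr1:128016346-128016645 (plus strand), with an AP-1 match and 3 C/EBP matches in capitals.
near Zranb3 window: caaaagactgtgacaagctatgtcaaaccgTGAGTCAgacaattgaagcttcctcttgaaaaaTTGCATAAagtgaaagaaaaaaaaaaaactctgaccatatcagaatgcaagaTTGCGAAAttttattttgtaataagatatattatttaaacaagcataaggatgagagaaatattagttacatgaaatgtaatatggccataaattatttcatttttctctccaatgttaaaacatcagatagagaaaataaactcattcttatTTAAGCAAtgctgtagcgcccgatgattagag

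Promoters are shown for the gene whose domain gained most Pol II at 1 h and for a gene whose domain lost nearly all of it by 18 h, as RefSeq gives them in the mm10 build, from 250 bases before to 50 bases after the gene start. That of Cxcl2, a neutrophil-attracting chemokine, lies at chr5:90903649-90903948 (plus strand), and its capitals mark 2 overlapping NF-kB matches.
Cxcl2 promoter: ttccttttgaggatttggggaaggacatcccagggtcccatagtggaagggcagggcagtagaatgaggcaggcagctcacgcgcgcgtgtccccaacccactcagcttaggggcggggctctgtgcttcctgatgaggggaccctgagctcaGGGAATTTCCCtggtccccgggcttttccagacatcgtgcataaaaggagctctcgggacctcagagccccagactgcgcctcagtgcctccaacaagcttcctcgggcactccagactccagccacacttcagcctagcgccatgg
The downstream of the 2 promoter entries of Mmp12, macrophage elastase, at chr9:7347124-7347423 (plus strand) held an AP-1 match, and the other entry, not printed, held PU.1 and C/EBP matches and none to AP-1.
Mmp12 promoter: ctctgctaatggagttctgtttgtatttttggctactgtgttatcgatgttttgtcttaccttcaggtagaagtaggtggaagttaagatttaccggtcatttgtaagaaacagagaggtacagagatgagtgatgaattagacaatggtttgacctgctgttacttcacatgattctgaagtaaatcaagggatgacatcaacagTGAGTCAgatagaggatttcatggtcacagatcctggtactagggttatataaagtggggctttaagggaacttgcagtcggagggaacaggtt
The letters searched on both strands were TGAGTCA for AP-1, GAGGAAGT for PU.1, TTGCNNAA for C/EBP, GGGAA, any base and TTCC for NF-kB, GAAA, any 2 bases and GAAA for IRF and AAAGGTCA for the NBRE. A match is a description of these letters and not a binding site. Of the 324 coding genes that start in a domain 251 had a promoter entry, and their 309 promoters held the PU.1 letters in 7.44%, against 3.20% of all 32851 promoters of the same length. The NF-kB letters were in 0.971% against 0.341%, a count of 3 promoters. AP-1 letters were in 5.83% against 5.20% and NBRE letters in 1.94% against 1.51%. C/EBP letters were in 10.7% against 10.8% and IRF letters in 3.24% against 3.44%.

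Along the whole domains the letters of PU.1 occurred 9.16 times per 100 kb, compared with 11.2 in the other resting regions and 6.73 in flanks of the same length. For AP-1 the values were 22.9, 24.8 and 18.7, for NF-kB 1.09, 1.17 and 0.743, for C/EBP 44.8, 46.2 and 42.9, for IRF 16.9, 18.0 and 16.9, and for the NBRE 5.36, 5.31 and 5.62 per 100 kb. PU.1, AP-1 and NF-kB letters were thus denser in domains than beside them and less dense than in the narrower regions, while NBRE density was similar in all 3. The domains had 45.6% G and C, and the ratio of observed to expected CpG was 0.228, compared with 46.4% and 0.322 in the other regions.

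The mature miRNAs below, from RefSeq in the mm10 build, come from the domains that held Mir21a, the X-linked pair Mir221 and Mir222, the Mir23a cluster and Mir22. They are shown because their domains are described with LPS further down. The seed, bases 2 to 8, is in capitals, and miR-221-3p and miR-222-3p share theirs.
miR-21a-5p: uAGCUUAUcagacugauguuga
miR-221-3p: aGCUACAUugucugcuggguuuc
miR-222-3p: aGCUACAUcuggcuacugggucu
miR-23a-3p: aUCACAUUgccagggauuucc
miR-27a-3p: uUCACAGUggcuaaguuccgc
miR-24-3p: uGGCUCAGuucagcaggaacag
miR-22-3p: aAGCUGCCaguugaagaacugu

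H3K27ac libraries held 13.5 to 55.4 Mtags (tags counted in units of 1e+06) and Pol II libraries 21.7 to 36.1, and within both marks replicates correlated at 0.991 to 0.999 over the domains except in 2 groups. In KO cells at 1 h, H3K27ac replicate 1 correlated at 0.854 to 0.855 with replicates 2 and 3, and at 0.979 to 0.981 with the WT libraries at 1 h. Replicates 2 and 3 correlated at 0.996 with each other and at 0.823 to 0.835 with WT at 1 h. In KO cells at 18 h, replicate 1 correlated at 0.896 to 0.897 with the other two, which correlated at 0.972 to 0.982 with WT at 18 h. The labels were kept as given, and whether libraries were exchanged was not tested. Counts of H3K27ac calls and of broad domains that use KO cells at 1 or 18 h are therefore given with and without replicate 1. KO H3K27ac libraries were also deeper (23.6 to 55.4 against 13.5 to 31.1 Mtags) and had shorter fragments (214 to 300 against 262 to 396 bases), and the part of depth and fragment length in genotype differences was not tested. Summed H3K27ac tags at the starts of 8 macrophage markers were 5274 to 8123 per library, with none of the 8 at 0 in every library. They were 0 to 28.6 for 4 T cell markers (2 at 0 in every library), 0 to 6.6 for 4 stromal and endothelial (3), 49.5 to 178.9 for 7 neutrophil (4), 106 to 363 for 4 B cell (2), 196 to 601 for 4 dendritic cell (2) and 23.9 to 93.1 for 4 erythroid and mast cell markers (3). The neutrophil sum differed by genotype, at 161.8 to 178.9 in KO and 72.4 to 86.4 in WT at 0 h and 105.4 to 123.7 and 59.6 to 70.4 at 1 h, and overlapped at 18 h. Most of it came from S100a8 in KO at 0 h (123 to 133 against 33.0 to 54.9). At 18 h the B cell sum was 325 to 363 in WT and 159 to 242 in KO, and the macrophage sum 7881 to 8123 and 5404 to 7292. The part of these in the genotype differences below was not tested.

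No domain lay at Nr4a1 itself. Pol II tags over the gene were 171 to 191 in WT and 58.9 to 77.5 in KO at 0 h, 23.0 to 30.4 and 33.5 to 37.4 at 1 h, and 0 to 7.50 and 0 at 18 h. In Pol II the groups were apart at 0 h, with fewer tags in KO, and at 1 h the KO libraries were the higher ones. H3K27ac tags were 113.9 to 133.0 in WT and 63.3 to 75.5 in KO at 0 h, and 110.0 to 115.5 and 73.3 to 102.4 at 1 h. In that mark KO was thus the lower at both times, and at 18 h the genotypes overlapped (23.9 to 55.0 and 10.3 to 26.9). The deleted part of the gene is not given in the sources used here, so tags over the whole gene do not check the genotype.

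Regions of Pol II often ran past the border of a domain, and tags of such a region were shared out by the length that lay inside. Every Pol II library had at least 80% of the tags of its overlapping regions inside the domain at 129 of 510 domains, and every H3K27ac library at 338. A library with no listed region in a domain was counted as inside. A domain may thus gain or lose shared tags when its region is joined to or split from a neighbour, and the counts over domains whose regions lay inside are given with each LPS comparison.

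The 510 domains spanned 11.6 Mb and made up 1.37% of the resting regions found in all 3 libraries but 9.79% of their length. Their median width was 19.6 kb and the range 15.0 to 75.7 kb, with 69 domains of 30 kb or more and 14 of 50 kb or more. The widest were near Atf3 (75.7 kb, chr1:191221117-191296785), at Bcl2l1, which encodes the anti-apoptotic protein Bcl-xL (66.1 kb, chr2:152766412-152832533), at Apbb1ip, an adaptor of integrin activation (64.6 kb), and across Vmp1 and Mir21a near Tubd1 (63.1 kb, chr11:86567726-86630858). Among the next widest were those at Plekho2, at Eya3, at Asph, at Akr1a1 and Prdx1, near Tns3, at Arhgap25 and at Ccl9 and Ccl6, with widths between 53.7 kb and 62.5 kb.

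At the limit, the narrowest domains, near Lims1, at Msh5 and Clic1 and near Cdc42bpg, were just over 15.0 kb, while the widest regions left out, at Tm9sf4, Pdxk and Bri3, measured 14.97, 14.96 and 14.96 kb. No gap in width separated domains from the regions below, and a limit of 10 kb would keep 1259 regions and one of 20 kb 248. In 289 domains each of the 3 libraries had a single region of 15 kb or more, in 471 at least 1 library did, and 39 domains reached the limit only through merging.

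**Figure D1:**
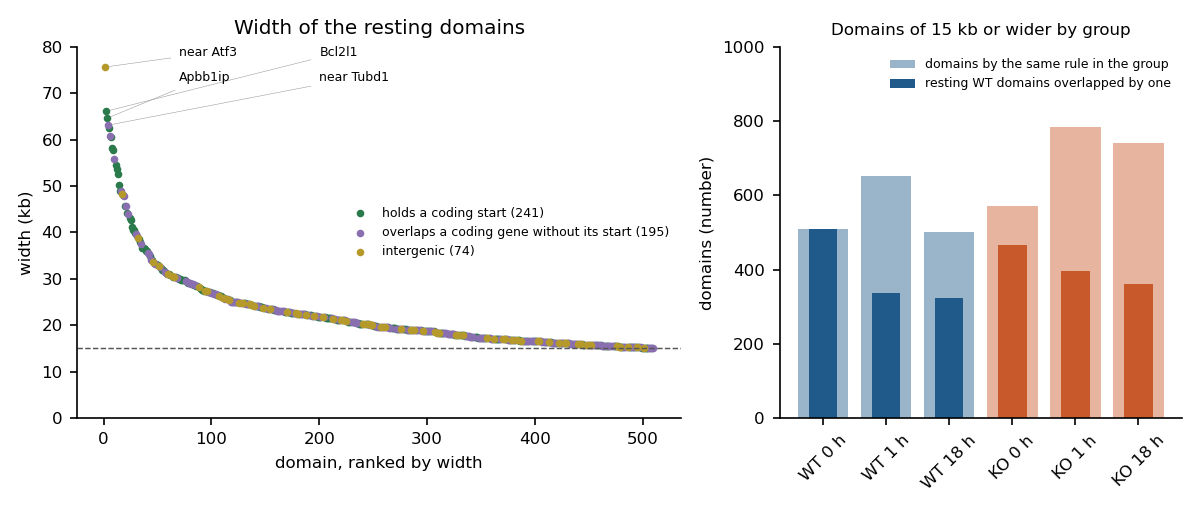
Left, width in kb of each of the 510 domains against its rank, coloured by what the domain holds, with the 4 widest named and the 15 kb limit dashed. Right, number of domains of 15 kb or more found by the same rule in each group of 3 H3K27ac libraries (pale bars) and number of the 510 resting WT domains that such a domain overlapped (dark bars); the pale bars run from 500 in WT at 18 h to 784 in KO at 1 h.

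A protein-coding gene started in 241 domains (47.3%), compared with 24.2% of the other resting regions, 195 domains overlapped a coding gene without its start and 74 were intergenic. Wider stretches hold more starts by their length alone, so the share is a description. Of the domains 61 held 2 or more coding starts, 85 the start of a long non-coding RNA and 22 a miRNA gene. Domains also lay beside each other, with 38 neighbouring pairs within 10 kb and 92 within 100 kb.

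Among 8 lists of coding genes relevant to macrophages and LPS, chosen with earlier results of these data known, the lysosome, lipid and phagocytosis list had 8 of 16 genes that started in a domain. They were Ctsd and Ctsb, the cathepsins D and B, Psap, the precursor of the saposins, Lyz2, lysozyme, Trem2 and Gpnmb, surface proteins of lipid-handling macrophages, Plin2, which coats lipid droplets, and Lgals3, galectin-3. Of 24 lineage genes 5 started in a domain, Spi1, which encodes PU.1, Csf1r, the receptor for the macrophage growth factor, Nr1h3, which encodes LXR alpha, Nfe2l2, which encodes NRF2, and Klf6. Of 18 cytokines and chemokines there were 3, Ccl3, Ccl9 and Cxcl2, and of 16 NF-kB and feedback genes 2, Tnfaip3, which encodes the inhibitor A20, and Zfp36, which encodes the mRNA decay factor tristetraprolin. None of the 17 AP-1 and immediate early genes, 14 interferon response genes, 12 actin genes or 9 LPS sensing genes started in one, against 324 of 21924 coding genes (1.48%) overall. The lists do not cover whole gene classes. Related genes outside them did start in domains, among them the actin regulators Actr3 and Capzb, the Toll-like receptors Tlr7 and Tlr13 and the interferon-induced Ifitm3.

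A Pol II region overlapped every domain in all 3 WT libraries at 0 h, against 66.4% of the other resting regions. Wider stretches are overlapped more by their length alone, so this share is a description. A region of at least 1 input library overlapped all 510 domains and 87.5% of the other regions. The median Pol II level in WT at 0 h was 50.1 tags per kb in domains and 9.95 in the other regions, and H3K27ac, which chose the domains, was at 119.8 and 30.2 tags per kb. Domains with a coding start had a median Pol II level of 70.8 tags per kb, those over a gene body 39.7 and intergenic ones 38.5, while their H3K27ac levels were 130.2, 101.5 and 139.1 tags per kb. At 0 h in WT, where H3K27ac chose the domains, intergenic domains thus had the highest median H3K27ac and about the Pol II level of gene bodies. After 1 and 18 h in WT their H3K27ac medians, 91.05 and 114.7 tags per kb, were below the 94.5 and 122.0 of domains with a coding start. In KO they were above those at 0 h (135.8 against 132.1) and 1 h (113.1 against 105.7) and below them at 18 h (85.26 against 106.9).

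The highest Pol II level in WT at 0 h was at Rgs1, a regulator of G protein signalling in leukocytes, with 936 ± 11.9 tags per kb (SD, n = 3). Fth1, ferritin heavy chain, followed with 727 ± 14.6. Also among the 5 highest, the domain of Lyz2 and Lyz1 had 645 ± 11.8 and Spp1, which encodes the secreted matrix protein osteopontin, 533 ± 38.5 tags per kb. Rgs1 and Fth1 stood apart from each other and from the rest, and every library of Lyz2 was above those of Spp1. The lowest levels, 6.65 to 10.6 tags per kb, were at domains near Cacybp, Tbl1xr1, Igf1, Bcl2l11 and Gpr183, of which none holds the start of the gene it is named for.

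Input libraries placed 0.0887 to 1.13% of their tags in the domains. The median ratio of H3K27ac to input tags in WT at 0 h was 25.3, the ratio was below 10 at 38 domains, and 3 domains were listed at 0 in the input. The highest input levels, 12.9 to 15.3 tags per kb, were at Rgs1, near Zeb2, near Ccr2, at Evi2b, Evi2 and Evi2a, and at Lilr4b and Lilrb4a. The KO input at 18 h covered 6.97% of the domains' length, against 42.6 to 62.5% in the other 5 input libraries.

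The share of H3K27ac tags that lay in the domains was 15.3 ± 0.305% (SD, n = 3) in WT at 0 h, 12.3 ± 0.120% at 1 h and 14.9 ± 0.163% at 18 h. In KO cells it was 15.2 ± 0.102%, 13.2 ± 0.406% and 13.0 ± 0.914%. The share fell at 1 h in both genotypes, and at 18 h the 3 WT libraries (14.7 to 15.0%) lay above the 3 KO libraries (12.0 to 13.8%), of which replicate 1 was the lowest. For Pol II the share was 10.7 ± 0.670, 10.5 ± 0.193 and 9.39 ± 0.110% in WT and 11.2 ± 0.289, 10.3 ± 0.360 and 8.43 ± 0.0906% in KO at 0, 1 and 18 h, so that the libraries at 18 h were the lowest in each genotype. With 3 libraries against 3 the exact permutation test cannot give a p below 0.1, and these shares were not tested further.

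**Figure D2:**
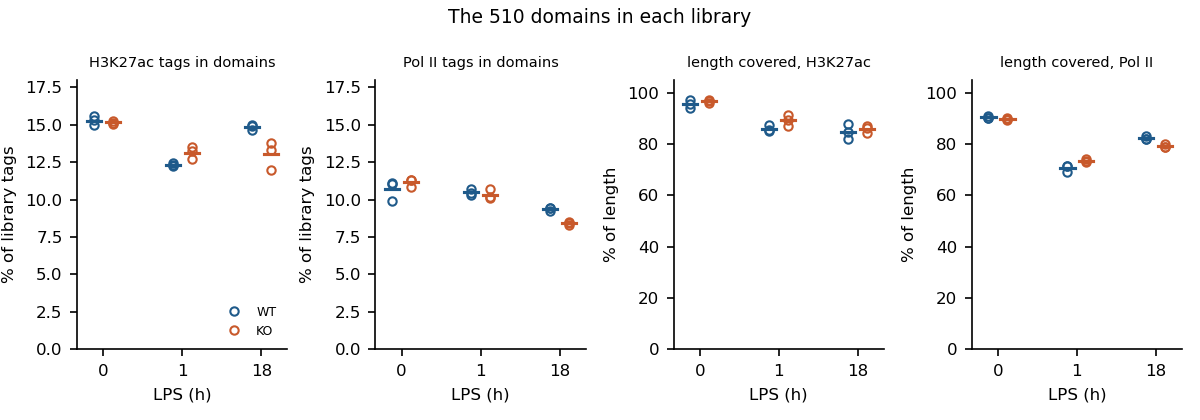
Share of each library's H3K27ac or Pol II tags that lay in the 510 domains, in percent, and share of the domains' length covered by regions of that mark, against hours of LPS; points are libraries, bars are means of 3, WT in blue and KO in orange. Pol II regions covered 90.4% of the length in WT at 0 h and 70.5% at 1 h.

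The regions that met the same rule differed in part between groups. By that rule WT had 651 domains at 1 h and 500 at 18 h, and there were 571, 784 and 740 in KO at 0, 1 and 18 h. Of the 510 resting domains 66.1% were overlapped by a domain of WT at 1 h, 63.5% at 18 h, 91.4% by one of KO at 0 h, 77.8% at 1 h and 70.6% at 18 h, which in turn were 51.3, 64.6, 80.9, 50.4 and 47.8% of the domains of those groups. Without KO replicate 1 there were 629 domains at 1 h and 545 at 18 h, which overlapped 68.4 and 63.1% of the resting domains and of which 55.3 and 58.5% did so. Every resting domain still held H3K27ac regions in each of the 18 libraries, which covered 82.2 to 97.1% of the domains' length, so a resting domain without overlap was one where no merged region of that group reached 15 kb with all 3 libraries. KO libraries were deeper, and the part of depth in these numbers was not tested.

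The H3K27ac signal of the domains in WT, given with no test because the 0 h libraries chose them, had a median log2 change of -0.47 at 1 h and -0.14 at 18 h, compared with -0.43 and -0.36 over all regions. With each library centred on the median of the regions found in every H3K27ac library, the values of the domains were -0.17 and 0.08. The direction at 18 h thus depends on the scaling. Here and below changes are on the log2(tags + 10) scale, which understates changes of low signals. The domain near Zranb3 had 3083, 3197 and 3123 H3K27ac tags at rest, 372, 277 and 287 after 1 h and 442, 499.8 and 427 after 18 h, and was among those that declined early. At Pim1, a kinase gene induced by cytokines, there were 1871, 1920.1 and 2007 tags at rest, 5963, 6118 and 6399 after 1 h and 5657, 5434 and 5948 after 18 h, so that the signal was higher at both times. KO against WT at 0 h had a median of -0.02 over domains and 0.01 over all regions.

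Pol II did not choose the domains, and its change with LPS was tested with limma over all regions. A domain was called where the adjusted p was under 0.05 and the log2 change beyond 1 in either direction. Throughout, all regions means those of the 48476 merged resting WT regions that entered the comparison. Regions with H3K27ac only after LPS are not among them, so counts of lower and higher describe resting regions and not the genome. At 1 h in WT, Pol II was higher at 75 domains (14.7%) and lower at 211 (41.4%), where 44.1% of 32602 regions tested were called, 11.4% higher and 32.7% lower. The median change was -0.59 in domains and -0.54 over all regions. In KO, 71 domains were higher and 199 lower, where 41.9% of all regions were called (13.3% higher and 28.6% lower), and the medians were -0.53 and -0.43. The domains' share of calls exceeded that of all regions in both genotypes, and more domains were lower than higher. The other resting regions had a median width of 2.23 kb and a median of 9.95 Pol II tags per kb in WT at 0 h. In domains that median was 50.1, and the log2(tags + 10) scale understates changes of low signals. The part of width and signal in the shares of calls was not tested.

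The call sets of the genotypes came from separate libraries. Of the domains higher at 1 h 65 were called in both, 86.7% of those of WT and 91.5% of those of KO, and of the domains lower 192, 91.0% and 96.5%, with none called in opposite directions. Restricted to domains whose regions lay inside in every library compared, 9 of 157 were higher and 90 lower in WT, and 12 of 156 higher and 79 lower in KO. The 80% limit for this was chosen after seeing the data. A domain whose region grew past its border with LPS drops out of this count, and one emptied of listed Pol II can stay in. The split of this count into higher and lower is therefore not compared with that over all 510.

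Cxcl2 and Tnfaip2 had the largest gains at 1 h in both genotypes. Tnfaip2 (chr12:111428209-111459820), a gene induced by tumour necrosis factor, had 2503, 2873 and 2710.4 Pol II tags in WT at rest, 46321, 49336 and 50376 after 1 h and 7147, 7042 and 7103 after 18 h. In KO the values were 2727, 2759 and 2459, then 40107, 35334 and 35145, then 7638, 7381 and 7637. The times did not overlap in either genotype, 1 h was the highest, and the log2 change at 1 h was 4.17 (SE 0.06, adjusted p = 7.03e-17) in WT and 3.79 (SE 0.06, adjusted p = 1.89e-16) in KO. At 18 h it was still 1.40 in WT and 1.51 in KO.

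At Cxcl2 (chr5:90893904-90909045), whose promoter is printed above, WT libraries had 665, 642 and 659.8 Pol II tags at rest, 14703, 15996 and 16709 after 1 h and 88.1, 78.6 and 81.2 after 18 h. KO libraries had 384, 422 and 318, then 14461, 12898 and 12584, then 102, 106 and 139.9. The domain gained Pol II at 1 h, by 4.57 (SE 0.11, adjusted p = 9.86e-15) in WT and 5.12 (SE 0.11, adjusted p = 3.38e-15) in KO, and fell below its resting level at 18 h, with changes of -2.85 (SE 0.11, adjusted p = 5.04e-12) and -1.62 (SE 0.11, adjusted p = 2.93e-09). At 1 h 67.0 to 70.7% of the tags of its regions lay inside the domain, and at the other times at least 97.6%.

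The next largest gains in WT were those near Rpl9-ps1 and near Tnfrsf1b. The intergenic domain near Rpl9-ps1 had 318, 349 and 362 tags at 0 h and 10245, 827 and 11295 at 1 h in WT (3.71, SE 0.64, adjusted p = 8.25e-05), replicate 2 being far below the other two. Only 1.4 to 18.2% of the tags of its regions lay inside at 1 h. The domain near Tnfrsf1b, within Tnfrsf8, rose from 361, 430.2 and 440.1 to 4776, 4618 and 4809 tags (3.50, SE 0.07, adjusted p = 1.01e-15), with 20.7% inside at 1 h. At Tnfaip3, which encodes A20, Pol II went from 2678, 3242 and 3146 tags to 29651, 29435 and 29249 in WT and from 3682, 3575 and 3668 to 27894, 24739 and 24854 in KO, log2 changes of 3.29 (SE 0.06, adjusted p = 8.69e-16) and 2.82 (SE 0.06, adjusted p = 3.97e-15). Its 18 h values, 3886, 3853 and 4092 in WT, were above those at rest by 0.39, under the limit for a call. The intergenic domain near Klf6 (chr13:5767395-5792136, 69.3 kb from the gene) rose from 263, 277 and 281 tags to 2833, 2651 and 2751 in WT and from 284, 257 and 281 to 3133, 3297 and 3105 in KO, changes of 3.28 (SE 0.05, adjusted p = 1.25e-16) and 3.49 (SE 0.05, adjusted p = 6.56e-17). The domain of Klf6 itself changed by 1.10 and 1.15, calls that were lost after quantile normalization (0.60 and 0.88). Pim1 rose in WT by 2.83 and in KO by 2.74 after 1 h, and by 2.06 and 1.94 at 18 h.

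The largest losses at 1 h exceeded the largest gains. Arhgap25, which encodes a Rac GTPase-activating protein of phagocytes, had 8387, 9419.8 and 9784 Pol II tags in WT at rest, 112, 92.6 and 113 after 1 h and 1602, 1536 and 1683 after 18 h. In KO it had 13065, 13154 and 13301, then 299, 330.2 and 312, then 1520.1, 1551 and 1490.0. The change of -6.31 (SE 0.07, adjusted p = 1.18e-17) in WT and -5.35 (SE 0.07, adjusted p = 4.14e-17) in KO separated all libraries, and 18 h lay between the other times. At rest 59.9 to 61.7% of the tags of its regions lay inside. At the widest domain, near Atf3, Pol II fell from 3703, 4164 and 4128 to 729.5, 665 and 816 tags at 1 h and was 4263, 4289.5 and 4286 at 18 h, the change at 1 h being -2.43 (SE 0.07, adjusted p = 1.5e-13) in WT and -2.32 (SE 0.07, adjusted p = 2.7e-13) in KO.

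Some domains were emptied of listed Pol II. The intergenic domain near Gsdmc (chr15:63600333-63619500, 189 kb from the gene) had 517, 609.8 and 617 tags in WT at 0 h and 504, 468 and 445 in KO. After LPS no region was listed in any of the 12 libraries. The domain near Zranb3, whose window is shown above, had 1309.9, 1197 and 1442 tags in WT at rest. It was listed at 0 in 2 of the 3 WT libraries at 1 h, with 7.59 tags in the other, likewise in 2 of 3 at 18 h, and in all 6 KO libraries at those times, although at rest only 21.8 to 34.5% of the tags of its regions lay inside. A value of 0 means that the library had no region past the caller's threshold there, so no fold is given. Pol II was listed at 0 in all 3 libraries at 1 h at 11 domains in WT and 6 in KO.

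Over the 211 domains lower at 1 h in WT the median Pol II level was 1111 tags at 0 h, 199 at 1 h and 723 at 18 h. Over the 75 higher ones it was 924, 2822 and 1422. In KO the medians were 1182, 243 and 635 for the 199 lower domains and 845, 2907 and 1385 for the 71 higher ones. These groups were formed by the values at 0 and 1 h, so the medians are given as a description.

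At 18 h, 47 domains were higher and 133 lower in WT, where 26.7% of all regions were called (11.8% higher and 14.9% lower), and 44 higher and 177 lower in KO, where 31.8% of 33228 regions were called (4145 regions higher and 19.3% lower). The median change was -0.25 in WT domains and 0.01 over all regions, and -0.52 and -0.14 in KO. Of the lower domains 131 were called in both genotypes, 98.5% of the WT and 74.0% of the KO calls, and of the higher ones 38, 80.9 and 86.4%. With regions inside, 5 of 152 domains were higher and 67 lower in WT and 6 of 159 higher and 83 lower in KO. The comparisons at 1 h and at 18 h share the 0 h libraries and are given side by side only.

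**Figure D3:**
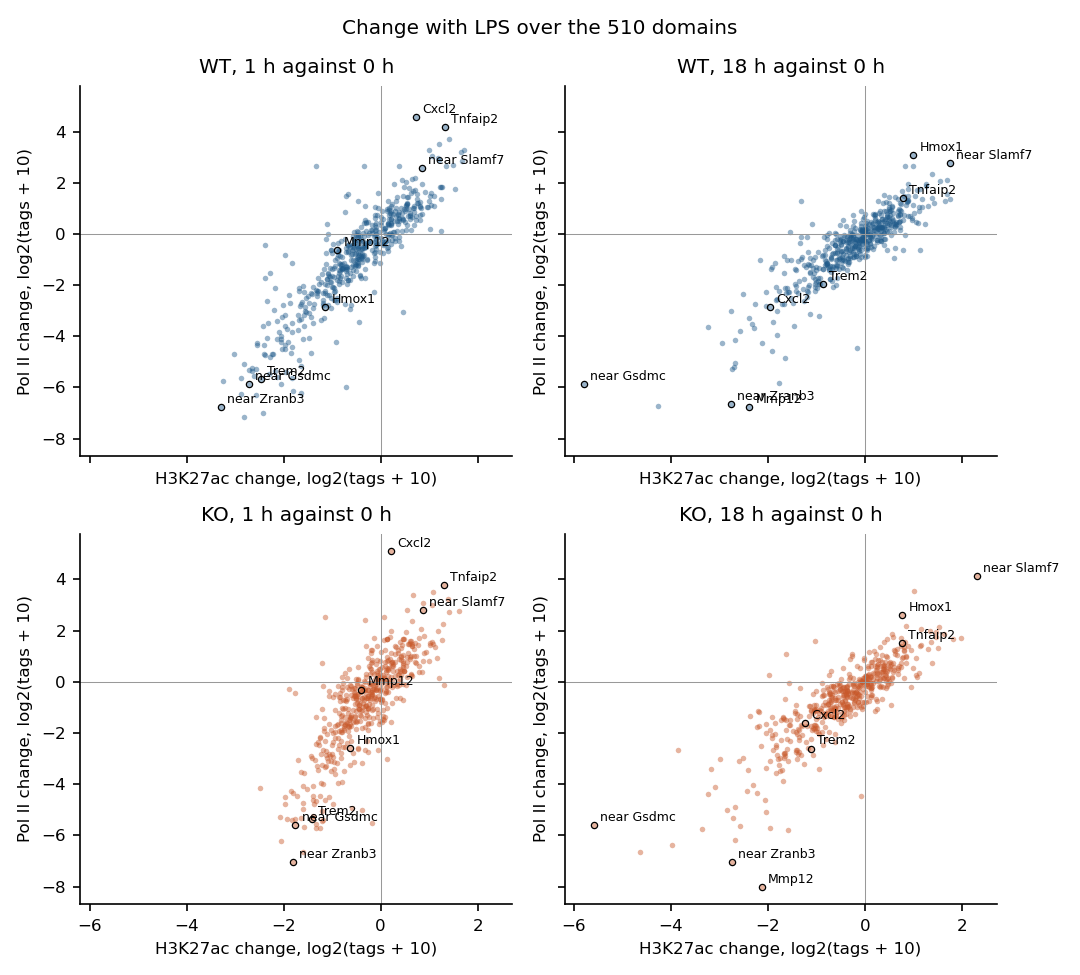
Log2 change of Pol II tags against log2 change of H3K27ac tags with LPS over the 510 domains, for 1 h and 18 h against 0 h in WT (blue, top) and KO (orange, bottom), each point a domain and some domains named; the WT 0 h H3K27ac libraries chose the domains. Points run from the lower left, with the domains near Gsdmc and near Zranb3, to the upper right, with Tnfaip2 and the domain near Slamf7.

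Hmox1, which encodes heme oxygenase-1, moved in opposite directions at the 2 times. Its Pol II tags in WT were 943, 1038 and 958 at rest, 102, 133 and 144 after 1 h and 8369.5, 8196 and 8282 after 18 h, and in KO 1016, 1116 and 889, then 155, 176 and 147, then 6137, 6004 and 6465. The times did not overlap in either genotype, whereas WT and KO did at rest, and the log2 changes were -2.87 (SE 0.10, adjusted p = 1.15e-12) at 1 h and 3.07 (SE 0.10, adjusted p = 1.19e-12) at 18 h in WT, and -2.58 and 2.62 in KO. As little as 33.3% of the tags of its WT regions lay inside the domain at rest and 52.2% at 18 h. The neighbouring starts of Akr1a1, an aldehyde reductase, and Prdx1, a peroxidase, shared a domain with 9125, 11146 and 10998 tags at rest, 6083, 5895 and 6464 after 1 h and 37264, 36535 and 30457 after 18 h in WT, a change of 1.74 at 18 h and of 1.21 in KO.

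Mmp12 and Spp1, secreted products of activated macrophages, kept most of their Pol II at 1 h and had lost it by 18 h. Mmp12 had 2155, 2168 and 2078 tags in WT at rest, 1347, 1311 and 1453 after 1 h and 15.8, 5.98 and 8.58 after 18 h. In KO it had 4009, 5103 and 4164, then 3986, 3282 and 3446, then 0, 5.49 and 21.2, so that KO was higher at 0 and 1 h and both genotypes were near 0 at 18 h. At Spp1 the values in WT were 12559.7, 11777 and 10864, then 11624, 12358 and 12535, then 203, 189 and 197, with a change at 18 h of -5.83 (SE 0.11, adjusted p = 2.5e-15) in WT and -5.78 (SE 0.11, adjusted p = 1.86e-15) in KO. Rgs1, which had the highest resting level, changed at 18 h by -2.27 in WT and -1.83 in KO, and Ccl9 with Ccl6, CC chemokines, by -3.62 and -3.49.

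**Figure D4:**
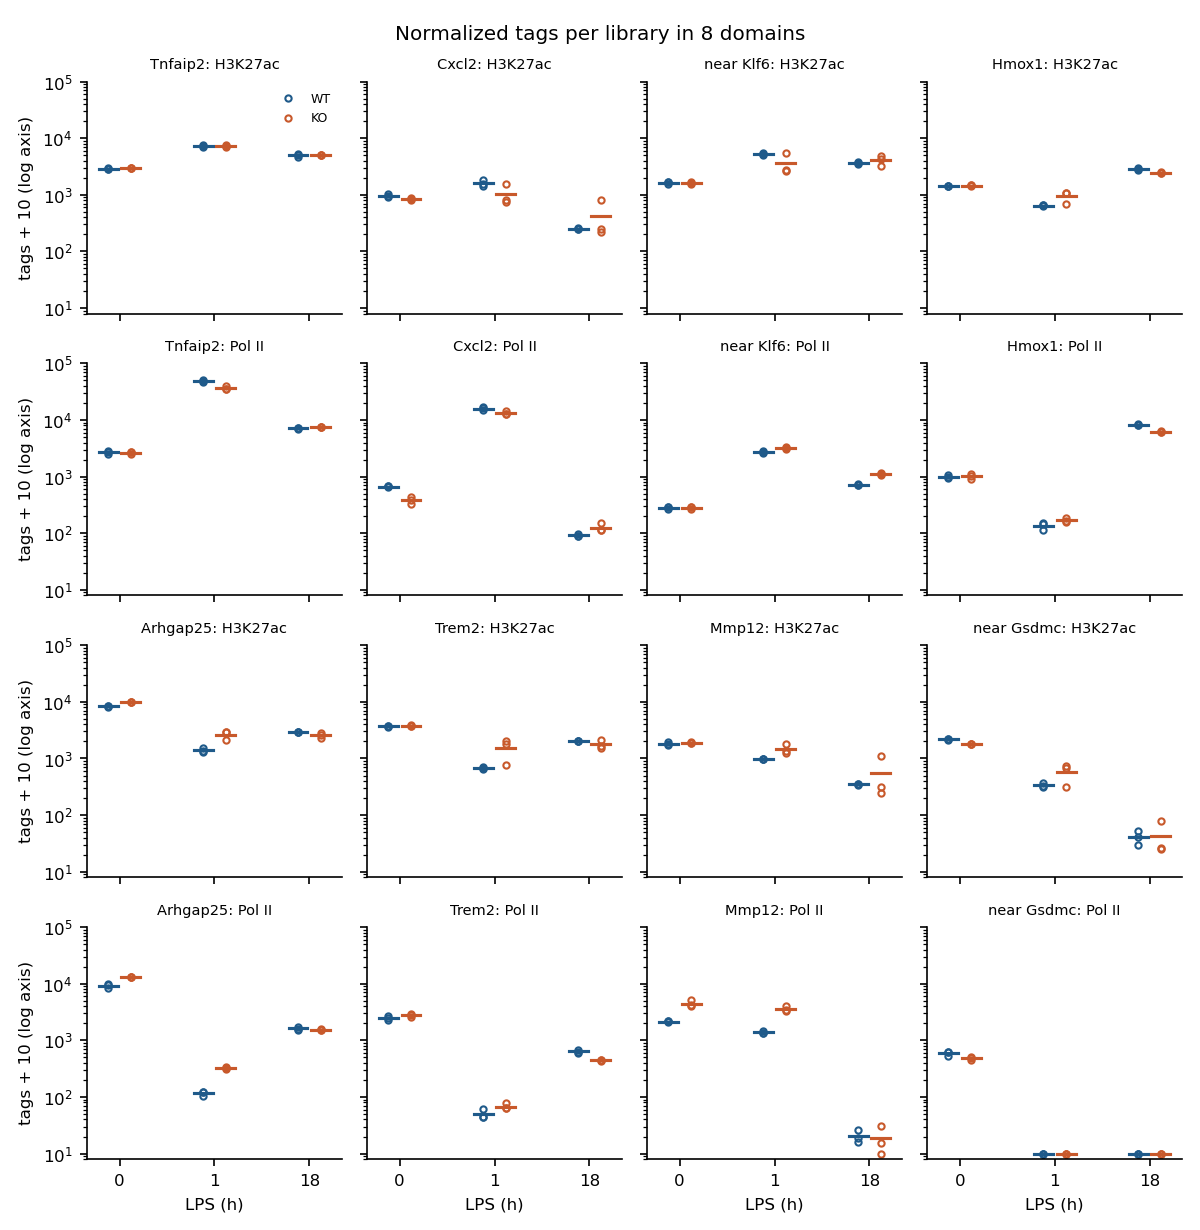
H3K27ac and Pol II tags + 10 per library (log axis) against hours of LPS in 8 domains, WT in blue and KO in orange, with bars at the mean of 3 libraries. Pol II at Tnfaip2, Cxcl2 and near Klf6 was highest at 1 h, at Hmox1 at 18 h, and at Arhgap25, Trem2, Mmp12 and near Gsdmc at 0 h.

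At 1 h, Pol II was lower at 6 and higher at none of the 8 domains that hold starts of the lysosome, lipid and phagocytosis list in WT (median change -2.33), where 41.4% of all domains were lower. In KO 5 were lower and none higher (-2.33), where 39.0% of all domains were lower. The other 8 genes of the list start in no domain and were not looked at, and the list was not tested against the other domains. At Trem2 Pol II in WT was 2243, 2510.4 and 2643 tags at rest, 34.8, 33.5 and 50.2 after 1 h and 662, 599 and 623 after 18 h, changes of -5.66 (SE 0.11, adjusted p = 1.69e-15) and -1.95 (SE 0.11, adjusted p = 6.68e-10). At Ctsd it was 12540.0, 13673 and 13017, then 630.0, 598 and 711, then 8834, 8802 and 8791, a change of -4.32 at 1 h. Psap had 9211, 10347 and 10172, then 954, 951 and 1029, then 21545, 20164 and 20714, and so fell at 1 h (-3.33) and rose above rest at 18 h (1.07), a call lost after centring (0.92), quantile normalization (0.98) and without replicate 1 (0.99). At Lyz2 and Lyz1, near-identical neighbours whose reads may not be told apart, the change was -2.71 at 1 h and -2.08 at 18 h in WT and -2.78 and -3.23 in KO. At 18 h there were 3108, 3014 and 3119.5 tags in WT and 1250.5, 1220.4 and 1351 in KO, without overlap, a difference of -1.27 (SE 0.08, adjusted p = 5.59e-08) and an interaction of -1.14 (SE 0.12, adjusted p = 2.38e-05), which fell just short of the limit after centring (-0.99). At Plin2 the changes in WT were -1.95 and -1.97. Gpnmb was called lower in WT at 1 h (-1.30), a call lost after centring (-0.97), and not in KO (-0.56). Ctsb and Lgals3 were called at neither time in either genotype. At 18 h 1 of the 8 was higher and 3 lower in WT, where 9.22% of all domains were higher and 26.1% lower, and 4 were lower in KO, where 34.7% were. The KO call at Ctsd was lost after quantile normalization (-0.72).

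Of the 5 lineage domains, Csf1r lost Pol II at 1 h, from 5148, 6122 and 5687 tags to 890.2, 859 and 899 in WT and from 5651, 5536 and 5523 to 1237, 1133 and 1207 in KO, changes of -2.66 (SE 0.05, adjusted p = 1.8e-15) and -2.22 (SE 0.05, adjusted p = 1.37e-14). Its 18 h values, 2521, 2448 and 2494 in WT and 1738, 1753 and 1669 in KO, lay between. Spi1 had 2276, 2448 and 3398 tags at 0 h and 5760.1, 5814 and 4632 at 1 h in WT, a change of 1.01 (SE 0.18, adjusted p = 0.000114), and of 0.79 in KO, which was not called. The WT value was just past the limit and fell short of it after quantile normalization (0.64), with input subtracted (0.999), with whole tags (0.86) and without replicate 1 or 2 (0.84 and 0.89). No difference between the genotypes is read from these calls. Nr1h3, in a domain with Acp2, rose in WT at 18 h (1.09, SE 0.07, adjusted p = 3.63e-09), while the KO change of 0.99 stopped just short of the limit. The WT call was lost after centring (0.94) and with input subtracted (0.91). Nfe2l2 had 1612, 1882 and 1919, then 1768, 1681 and 1754, then 1805, 1775 and 1775 tags in WT, values that overlapped between times. Of the 5, 2 were higher and 1 lower at 1 h in WT, 1 and 1 in KO, 1 and 1 at 18 h in WT and 0 and 1 in KO, where 14.7, 13.9, 9.22 and 8.63% of all domains were higher and 41.4, 39.0, 26.1 and 34.7% lower. The counts at 1 h hold Klf6, whose calls were lost after quantile normalization.

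Among cytokines and chemokines, Ccl3, in a domain with Rpl9-ps1, rose at 1 h by 2.87 (SE 0.09, adjusted p = 3.74e-13) in WT and 3.01 (SE 0.09, adjusted p = 2.23e-13) in KO, from 4328, 4302 and 4194 to 27526, 36368 and 30737 tags in WT. Ccl9 with Ccl6 went from 14115, 15072 and 14569 to 27639, 27738 and 29361, a difference under the limit for a call. Of the 3 domains of this list 2 were higher at 1 h in each genotype, where 14.7% of all domains were higher in WT and 13.9% in KO, and 2 were lower at 18 h, where 26.1 and 34.7% were lower. Of the NF-kB list Tnfaip3 was called higher at 1 h in both genotypes. Zfp36, in a domain with 3 other coding starts, had 4368, 4947 and 4858 tags at 0 h and 7676, 10964 and 8231 at 1 h in WT and was not called.

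The domains with the miRNA genes printed above, chosen for these genes after their values were seen, differed in their course. That of Mir221 and Mir222 (chrX:19140202-19173856, intergenic, 307 kb from Tex13c3) had 9677, 10597 and 10482 Pol II tags in WT at rest, 22885, 22578 and 23326 after 1 h and 2874, 2978 and 3080.0 after 18 h. The times did not overlap, with changes of 1.16 (SE 0.05, adjusted p = 3.48e-12) at 1 h and -1.78 (SE 0.05, adjusted p = 6.54e-14) at 18 h in WT and 1.23 and -1.15 in KO. After quantile normalization the call in WT at 1 h (0.68) and that in KO at 18 h (-0.80) were lost. The domain of Mir21a had 14592, 15959 and 16112, then 25484, 24622 and 26693, then 27222, 26969 and 27630.0 tags, higher after LPS in every library but under the limit for a call. The Mir23a cluster near Nanos3 had 1973, 2274 and 2346, then 1065, 1181 and 1089, then 1171, 1143 and 1279 tags and Mir22, in a domain with Wdr81 and Tlcd2, 2836, 3279 and 3159, then 6131, 5312 and 5609, then 3859, 3592 and 2728, neither of them called.

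H3K27ac was tested between groups that leave out the WT 0 h libraries. These libraries still chose the regions and entered the shared estimate of the spread. Over the domains the KO libraries at 0 h correlated at 0.977 to 0.985 with them. Lower and higher counts in KO with LPS are therefore to be read with that choice in mind. From 1 h to 18 h in WT, 98 domains were higher and 48 lower, where 32.6% of all regions were called (16.2% higher and 16.3% lower), with a median change of 0.27 in domains and 0.04 over all regions. Among the regions inside in each library, 84 of 408 were higher and 34 lower. In KO, 17 domains were higher and 81 lower at 1 h, where 21.1% of all regions were called (5.47% higher and 15.6% lower), and 20 higher and 130 lower at 18 h, where 33.6% were called (6.75% and 26.8%). Without KO replicate 1 the counts were 13 and 66 at 1 h, where 21.8% of all regions were called, with 65 domains called in both fits. At 18 h they were 26 and 129, where 36.2% were called, with 139 in both. Where regions lay inside, 8 of 389 were higher and 73 lower at 1 h and 5 of 382 higher and 115 lower at 18 h. The share of domains called was below that of all regions in each of these 3 comparisons (28.6, 19.2 and 29.4%).

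Tnfaip2 and Pim1 gained H3K27ac in KO at 1 h. At Tnfaip2 KO libraries had 2921, 2953 and 2907 H3K27ac tags at 0 h and 7559, 7354 and 6859.6 at 1 h, a change of 1.31 (SE 0.07, adjusted p = 2.92e-09), and 1.27 to 1.35 (6 of 6 fits called) when replicates were left out. Pim1 had 1990.1, 1896 and 1901 and 6232, 4876 and 4451, a change of 1.41 (SE 0.13, adjusted p = 4.69e-07). In both, all libraries at 1 h were above those at 0 h. The domain near Gsdmc lost H3K27ac as it lost Pol II, with 1818, 1771 and 1797 tags at rest, 298, 717 and 664 after 1 h and 68.3, 15 and 16.7 after 18 h in KO, a change at 18 h of -5.59 (SE 0.36, adjusted p = 3.55e-09). In WT it went from 356, 315 and 306 at 1 h to 42.2, 19.3 and 31.7 at 18 h (-3.07). In contrast, Hmox1 rose in WT from 646, 638 and 620.5 at 1 h to 2909.8, 2776 and 2822 at 18 h (2.14, SE 0.13, adjusted p = 4.28e-09) and the domain near Haus8, in Myo9b, from 513, 454 and 465 to 3345, 3256 and 3443 (2.79).

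The 2 marks changed together over domains, and whether they did so as much in other regions was not looked at. Of all domains in KO, 39.0% were lower and 13.9% higher in Pol II at 1 h, and 34.7% and 8.63% at 18 h. In KO, 14 of the 17 domains higher in H3K27ac at 1 h were among the 71 higher in Pol II (82.4 and 19.7%) and 75 of the 81 lower ones among the 199 lower in Pol II (92.6 and 37.7%), with 1 domain called in opposite directions. At 18 h the shared calls were 15 higher (75% of the H3K27ac and 34.1% of the Pol II calls) and 119 lower (91.5 and 67.2%), with 2 in opposite directions. Without KO H3K27ac replicate 1 the shared calls at 1 h were 10 of 13 higher and 51 of 66 lower. At 18 h they were 18 of 26 higher and 118 of 129 lower. Pearson's r of the changes in KO was 0.651 at 1 h and 0.867 at 18 h. With all libraries, Pearson's r of the changes over 510 domains was 0.804 at 1 h and 0.851 at 18 h in KO, and 0.888 and 0.866 in WT, as a description, since domains share libraries and neighbours. At Trem2, for example, WT H3K27ac was 3595, 3787 and 3782 tags at 0 h and 690.1, 633 and 675 at 1 h beside the fall of Pol II given above.

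Few domains differed between KO and WT. For Pol II, 3 domains were higher and 1 lower in KO at 0 h, where 1.18% of all regions were called, 0.574% higher and 0.608% lower. At 1 h 18 of 501 tested were higher and 5 lower, where 4.64% of regions were called, 3.81% higher and 0.833% lower. At 18 h 3 of 506 were higher and 21 lower, where 2.77% were called, 0.989% higher and 1.78% lower. For H3K27ac, 32 were higher and 3 lower at 1 h, where 9.76% of regions were called, 7.86% higher and 1.9% lower, and none was higher and 8 were lower at 18 h, where 1.79% were called, 0.835% higher and 0.952% lower. The change with LPS differed between genotypes at 17 domains at 1 h (13 higher and 4 lower in KO), where 3.09% of all regions were called, 2.37% higher and 0.718% lower. At 18 h it differed at 17 (3 and 14), where 2.58% were called, 0.882% higher and 1.7% lower. The share of domains called was 6.86% for H3K27ac at 1 h, below that of all regions, and 4.74% for Pol II at 18 h, above it. The part of width and signal in these shares was not tested.

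The H3K27ac counts at 1 h rested on the libraries that stood apart. Without KO replicate 1, 71 domains were higher and 12 lower in KO at 1 h, where 22.0% of all regions were called, and 34 were called in both fits, whereas at 18 h 0 were higher and 7 lower, where 2.09% were called, 6 of them in both. Without KO replicate 2 or 3 there were 17 and 10 at 18 h. Without KO replicate 2 or 3 there were 11 and 14 domains at 1 h. Without replicate 1, 2 or 3 of every group there were 87, 4 and 4. With each library centred on the median of the regions found in every Pol II library, Pol II at 1 h was higher in KO at 12 domains and lower at 9. Where regions lay inside, Pol II in KO was higher at 16 of 238 domains and lower at 4 at 1 h, and higher at 1 of 198 and lower at 18 at 18 h.

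The 4 domains that differed in Pol II at 0 h were named in full. The domain near Slamf7 (chr1:171626544-171650047, which overlaps this gene of a SLAM family receptor and holds Mir7683) had 1369.6, 1688 and 1545 Pol II tags in WT and 540.0, 469 and 546 in KO at 0 h, 9011, 9018 and 9403 and 3906, 3547 and 3640.3 at 1 h, and 11176, 11103 and 8954 and 9077, 9064 and 9440.3 at 18 h. KO was below WT at 0 h (-1.55, SE 0.09, adjusted p = 1.64e-08) and at 1 h (-1.30, SE 0.09, adjusted p = 6.58e-08), and overlapped it at 18 h, so that the rise over 18 h was larger in KO, with an interaction of 1.37 (SE 0.12, adjusted p = 7.6e-06). As little as 62.5% of the WT tags lay inside at 18 h. H3K27ac there was 2293, 2386 and 2334 tags in WT and 1180.1, 1140.0 and 1128 in KO at 0 h. At Cd84, another SLAM family gene 187 kb away, KO had 6057, 5916 and 5835 tags and WT 2391, 2803 and 2825 at 0 h (1.15, SE 0.18, adjusted p = 0.000825), but only 27.7 to 28.1% of the WT tags lay inside the domain against 100% in KO, and with whole regions counted the difference was -0.69.

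On chromosome 6 the domain near Plxnd1, a semaphorin receptor gene (chr6:116001098-116018148), had 359, 432 and 456 Pol II tags in WT and 1642, 1506 and 1251 in KO at 0 h, 92.3, 79.5 and 69.5 and 552, 529.7 and 530.0 at 1 h, and 151, 129 and 127 and 329.9, 299.9 and 309.5 at 18 h. KO was above WT at each time without overlap, by 1.79 (SE 0.11, adjusted p = 6.52e-08), 2.61 (SE 0.11, adjusted p = 5.92e-10) and 1.15 (SE 0.11, adjusted p = 5.01e-06). With whole tags the difference at 18 h was 0.89, short of the limit. The domain near Tmcc1, 104 kb further on (chr6:116121808-116137420), went the other way, with 228, 255 and 244 tags in WT and 117, 114 and 131 in KO at 0 h, 183, 149 and 176 and 47.9, 40.5 and 31.9 at 1 h, and 216, 199 and 204 and 46.7, 46 and 47.6 at 18 h. KO was lower in every library at each time, by -1.85 (SE 0.11, adjusted p = 1.02e-08) at 1 h and -1.93 (SE 0.11, adjusted p = 5.9e-09) at 18 h, and lower in H3K27ac at 18 h (-1.60, SE 0.09, adjusted p = 7.08e-09), with 751, 825 and 839.6 tags in WT and 260.1, 286 and 231 in KO. With input subtracted the Pol II difference at 18 h turned to 2.04. Mmp12, with more Pol II in KO at 0 h (1.04, SE 0.28, adjusted p = 0.0356) and 1 h (1.37, SE 0.28, adjusted p = 0.00197), had as little as 36.8% of its tags inside at those times. The call at 0 h was lost with whole tags (0.92) and after centring (0.94) or quantile normalization (0.95). It was also lost with no filter (adjusted p = 0.0772), with a pseudocount of 1 (adjusted p = 0.531), with the replicate block (adjusted p = 0.0506) and without replicate 1, replicate 2 or KO replicate 2.

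At 1 h the largest difference was near Egr3, an immediate early transcription factor gene (chr14:70053218-70068425, within Pebp4). WT had 354, 414 and 431 Pol II tags at rest, 27.2, 29.9 and 33.1 after 1 h and 533, 526 and 561 after 18 h, and KO 699.6, 692 and 637, then 278, 295 and 276, then 1128, 1066 and 1061. KO was higher at each time, and both genotypes fell at 1 h, KO by less, with a difference at 1 h of 2.87 (SE 0.07, adjusted p = 1.56e-12) and an interaction of 2.12 (SE 0.11, adjusted p = 1.99e-08). Its H3K27ac at 1 h was 510.1, 425 and 447 tags in WT and 1235, 1794 and 1715 in KO (1.74, SE 0.13, adjusted p = 4.45e-07, 1.59 to 1.98 (6 of 6 fits called) when replicates were left out), and KO replicate 1 was the lowest of the KO libraries and above all of WT. At Slc37a2, a sugar phosphate transporter of macrophages, Pol II fell at 1 h to 92.7, 95.4 and 125 in WT and 346, 333 and 362 in KO from 1864, 2258 and 2279.6 and 1842, 1823 and 1924, an interaction of 1.84 (SE 0.13, adjusted p = 7.04e-07). The genotypes overlapped at rest and did not at 1 h.

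At 18 h KO was lower at 21 of the 24 domains called in Pol II. With input subtracted it was higher at 71 and lower at 3, where the KO input at 18 h was nearly empty. Ccr3, a chemokine receptor gene, had 1500.2, 1663 and 1745 Pol II tags in WT and 1707, 1703 and 1602 in KO at 0 h, and 85.4, 86.3 and 121 and 9.13, 14.8 and 17.1 at 18 h, a difference of -2.18 (SE 0.12, adjusted p = 9.3e-09) and an interaction of -2.21 (SE 0.18, adjusted p = 1.94e-06), which was -0.075 (adjusted p = 0.616) with input subtracted. The genotypes overlapped at rest, where 56.0 to 57.6% of the tags lay inside, and were apart at 18 h, where all did. Near Dab2, which encodes an endocytic adaptor, WT had 36, 26.2 and 30.1 tags at 18 h and KO was listed at 0 in all 3 libraries, after 644, 712 and 751 and 566, 516 and 527 at 0 h. The domain near Cd5l, the gene of a secreted macrophage protein, had 564, 541 and 558 tags in WT and 194, 227 and 200.2 in KO at 18 h (-1.38, SE 0.17, adjusted p = 4.96e-05), and 334, 359 and 378 and 214, 182 and 178 at 0 h. It was also called lower in KO at 1 h, without overlap between the genotypes. Near Dcstamp, a gene of cell fusion, KO was the higher, with 86.8, 117 and 99.9 tags against 37.3, 42.4 and 33.8 in WT (1.21, SE 0.13, adjusted p = 1.42e-05).

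**Figure D5:**
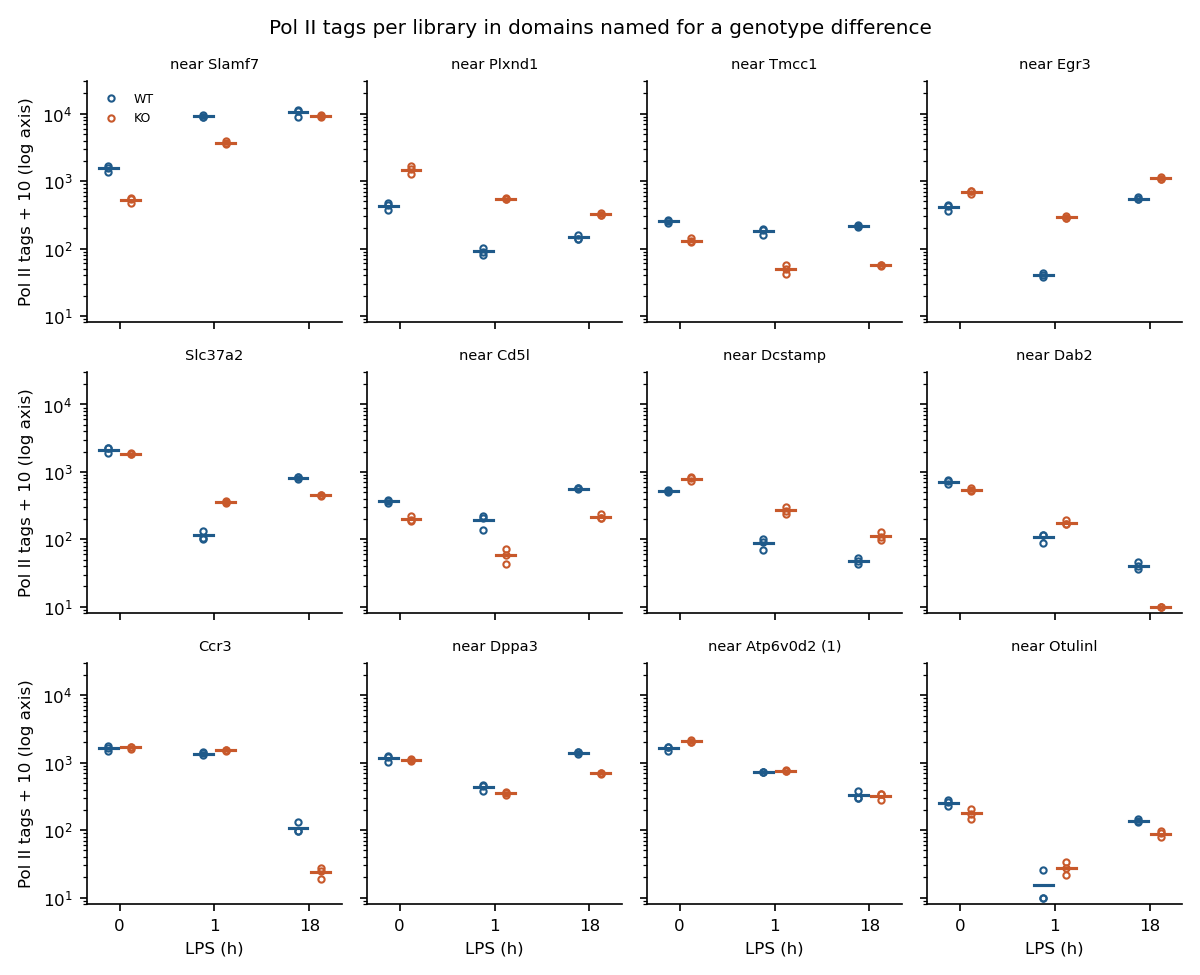
Pol II tags + 10 per library (log axis) against hours of LPS in 12 domains named for a genotype difference, WT in blue and KO in orange, with bars at the mean of 3 libraries. KO lay above WT at each time near Plxnd1 and below it near Tmcc1, and near Egr3 the gap was widest at 1 h.

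In all, 80 domains (15.7%) were called in at least 1 of the 7 comparisons that involve genotype, where 14.8% of 43966 regions tested were. Without H3K27ac replicate 1 of KO at 1 and 18 h there were 115 (22.5%), where 24.9% of regions were. On chromosome 15, which carries Nr4a1, 9 of 24 domains were called (37.5%), where 18.0% of the regions tested there were, and on chromosome 11 it was 1 of 42 (2.4%), where 11.4% were. Without that replicate these were 12 and 5 domains, where 28.7 and 20.8% of regions were called. With all libraries, 28.6, 29.4 and 29.2% of domains were called on chromosomes 12, 13 and 14, where 15.5, 13.7 and 17.8% of regions were. Chromosomes 15 and 11 were chosen after their values were seen, and the distance of called domains from Nr4a1 was not tested.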

How the data were processed

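H3K27ac, Pol II and input DNA were measured by ChIP-seq in BMDMs. The authors trimmed the reads with Skewer, aligned them to mm10 with HISAT2 (2.1.0 in the submitters' processing notes), removed duplicates and called regions in each library alone with HOMER in its histone style and without the input, stitching windows that lay close together. The deposited signal of a region is its tag count normalized to 10000000 tags of that library, so differences in total chromatin yield between libraries are scaled away. The files list only regions past a threshold, so 0 means that no region was listed, and a deeper library can list weaker regions. The Pol II antibody has one catalogue number in the labels and another in the methods, and which was used was not settled here.

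Regions were merged and counted with Python 3.11.15 (numpy 2.4.6, pandas 2.3.3) on the GENCODE M21 annotation of the mm10 build. The tags of a region crossing a border were shared out by overlapping length. A region entered a test when at least 2 of the 3 libraries in either group listed it, and was tested with limma 3.58.1 in R 4.3.3 on log2(tags + 10), with 6 group means and a variance trend, and p-values were adjusted by the Benjamini-Hochberg method over all regions tested, in 14 comparisons. A further 3 comparisons, which use the libraries that chose the domains, were described only. A region was called at an adjusted p under 0.05 and an absolute log2 change over 1. The script was tested on simulated data. Plots were drawn with matplotlib 3.10.9.

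Named domains are the 12 widest, the 3 narrowest and the 3 widest regions below the limit, up to 4 called domains in each direction of each comparison whose libraries do not overlap, those with a gene of the 9 lists, and the 5 highest and lowest in Pol II and highest in input. One of these domains, and a list that rests on it, are not reported here. The domains, lists and tests were chosen with earlier results of these data known. The alternatives tried were a pseudocount of 1, other filters, median centring, quantile normalization, input subtraction, whole tags of overlapping regions, a common density floor, the adjusted p alone, leaving out replicates, a replicate block, other widths and, chosen after seeing the data, only domains with at least 80% of the tags of their regions inside. Sequences and promoters are RefSeq's or those of the GRCm38.p6 assembly.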

Additional observations from a re-analysis of the deposited data

Results flagged for a closer look

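The change of Pol II with LPS differed between KO and WT in 20 named domains, near Dab2 at both times, by the limma interaction of genotype and time, whose values are log2 differences, KO minus WT. At 1 h the interaction was 2.12 near Egr3, 1.84 at Slc37a2, 1.60 near Tbl1xr1, 1.52 near Otulinl, 1.10 near Igf1, 1.10 near Dab2, 1.05 near Cacybp and 1.05 at Cerk, where the KO change was the more positive one. It was -1.20 at Themis2, -1.15 at Ehd4, -1.03 near Zfp710 and -1.0 at Rassf4. At 18 h it was 1.37 near Slamf7, 1.23 at Cxcl2 and 1.21 near Tnfrsf1b, and -2.21 at Ccr3, -1.93 near Sesn1, -1.90 near Asap1, -1.14 at Lyz2 and Lyz1 and -1.09 near Slit1. Near Dab2 at 18 h the fitted value was -1.64, but KO was listed at 0 in all 3 libraries at 18 h, so it gives no size, and with a common density floor it was -1.02 (adjusted p = 0.277 by limma). With input subtracted the interaction was -0.075 at Ccr3 and -0.61 near Asap1, neither of them called, and turned to 1.40 near Sesn1, which was called (adjusted p = 0.000141 by limma), and to 0.52 near Dab2, which was not. After centring the 4 values at 1 h near Igf1 (0.98), near Dab2 (0.97), near Cacybp (0.93) and at Cerk (0.92) fell short of the limit, as did those at 18 h at Lyz2 and Lyz1 (-0.99) and near Slit1 (-0.94). Near Igf1, near Dab2 and at Cerk the calls at 1 h were also lost with the common density floor (adjusted p = 0.00311 at 0.99, 0.254 and 0.0779 by limma), near Cacybp in 3 of the 6 fits without a replicate and at Cerk and near Slit1 in 2. Quantile normalization ended the same calls except that at Lyz2 and Lyz1, input subtraction those near Igf1, near Dab2 and near Slit1, and a pseudocount of 1 that near Slit1. At Rassf4 it turned to 0.085 with whole tags (adjusted p = 0.862), and the call was also lost after quantile normalization (-0.81) and without replicate 1 (-0.96), KO replicate 2 (-0.999) or KO replicate 3 (-0.98). Near Otulinl, listed at 0 in 2 of the 3 WT libraries at 1 h, the call was lost with no filter (adjusted p = 0.0523 by limma), a pseudocount of 1 (adjusted p = 0.0726), whole tags (adjusted p = 0.0781) and the common density floor (adjusted p = 0.169). It was also lost with input subtracted, at 0.91, and in 4 of the 6 fits without a replicate. Near Zfp710 the value fell short of the limit without replicate 1 (-0.84) or KO replicate 1 (-0.94), and at Cxcl2 without replicate 3 (0.97). The background share of regions called was 3.09% at 1 h and 2.58% at 18 h, and the 17 domains called at each time were 3.33% of 510. Near Asap1 as little as 8.2% of the tags lay inside the domain, and the cause of that difference was not tested.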

How the results depend on the processing

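Limits. Replicate numbers did not pair the libraries (correlation of their deviations -0.0890 to 0.0690), and with the replicate number as a block 34 domains instead of 35 differed in H3K27ac between KO and WT at 1 h and 3 instead of 4 in Pol II at 0 h, while the other counts of called domains were the same. Files list regions past a threshold only, so depth limits what can be seen at low signal. The causes of the shifts below were not tested. The counts below show only how the number of called domains moved with each setting. The share of all regions called in each setting is not given, so these counts are not read against other regions.

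With the adjusted p alone, 330, 358, 364, 212 and 68 domains were called for H3K27ac (KO 1 h and 18 h, WT 18 h against 1 h, KO against WT at 1 h and 18 h), and 464, 417, 453, 438, 69, 252, 202, 127 and 165 for Pol II (WT 1 h and 18 h, KO 1 h and 18 h, KO against WT at 0, 1 and 18 h, interaction at 1 h and 18 h). With regions inside, the Pol II counts were 99, 72, 91 and 89 with LPS (WT 1 h and 18 h, KO 1 h and 18 h), 1 for KO against WT at 0 h, and 8 and 7 for the interactions at 1 and 18 h, where fewer domains were counted. Centring or quantile normalization gave 5 domains each for H3K27ac KO against WT at 18 h, and quantile normalization 11 for the interaction at 1 h. Input subtraction gave 8, 53 and 74 for Pol II KO against WT at 0, 1 and 18 h and 48 and 70 for the interactions, the KO input at 18 h being nearly empty. Whole tags gave 47 for Pol II KO against WT at 1 h and 42 and 36 for the interactions, and a pseudocount of 1 gave 37 for the first of these. Centring moved the split of calls for Pol II in WT at 1 h to 106 higher and 179 lower, for H3K27ac in KO at 18 h to 42 and 97, for H3K27ac KO against WT at 1 h to 19 and 6, for Pol II KO against WT at 1 h to 12 and 9 and for the interaction at 1 h to 6 and 6. Quantile normalization gave 27 and 67 for H3K27ac in KO at 1 h and 65 and 63 for WT 18 h against 1 h. Input subtraction gave 71 higher and 3 lower for Pol II KO against WT at 18 h and 67 and 3 for the interaction. Centring moved the median Pol II change of all regions in WT from -0.54 to -0.21 at 1 h and from 0.01 to -0.14 at 18 h.

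The median H3K27ac change of the domains in WT at 1 h was -0.17 centred, -0.27 after quantile normalization, -0.53 with input subtracted and -0.43 with whole tags. At 18 h it was 0.08 centred, -0.20 after quantile normalization, -0.23 with input subtracted and -0.11 with whole tags, and KO against WT at 0 h was 0.026 with whole tags. A width limit of 10 kb gave 1259 domains, one of 20 kb 248, and single regions of 15 kb in each library 289.

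Leaving out replicates gave 436 to 486 domains. The calls ranged for H3K27ac over 79 to 111 (KO 1 h), 133 to 155 (KO 18 h), 143 to 150 (WT 18 h against 1 h), 4 to 87 and 5 to 17 (KO against WT at 1 and 18 h), and for Pol II over 283 to 289 and 174 to 193 (WT 1 h and 18 h), 267 to 271 and 219 to 227 (KO), 2 to 5, 22 to 31 and 21 to 28 (KO against WT at 0, 1 and 18 h) and 14 to 22 and 12 to 19 (interactions). The medians ranged over -0.49 to -0.44, -0.18 to -0.13 and -0.04 to -0.01.

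Of 167 named changes 123 kept their direction and side of the threshold in every setting. Calls near the limit were lost for Klf6 at 1 h (0.60 in WT and 0.88 in KO) the Mir221 domain in WT at 1 h (0.68) and in KO at 18 h (-0.80) and Ctsd in KO at 18 h (-0.72) after quantile normalization, near Plxnd1 in KO against WT at 18 h with whole tags (0.89), and for Gpnmb in WT at 1 h after centring (-0.97). Changes that turned were Cd84 in Pol II KO against WT at 0 h (-0.69 with whole tags), near Tmcc1 at 18 h (2.04 with input subtracted), the interactions of Rassf4 at 1 h (0.085 with whole tags) and, with input subtracted, of near Sesn1 (1.40) and near Dab2 (0.52) at 18 h.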
